A study of Macaca fascicularis and Macaca mulatta and Papio anubis with 20 samples.

Results

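PIEZO2, the gene of a mechanically gated ion channel, was followed across spatial transcriptomes of primate dorsal root ganglia. It was found by its symbol and is 1 of the 22000 features counted in the *Macaca fascicularis* sections, where its identifier is ENSMFAG00000030895. The identifier was ENSPANG00000012600 in the sections labelled *Macaca mulatta* and ENSMMUG00000057787 in those labelled *Papio anubis*. These prefixes belong to the other species of that pair, so the labels of these 4 sections may be crossed, and values are given for "sections labelled" with a species.

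The assay was Visium: transcripts released from a frozen section bind to an array of barcoded spots, and unique molecular identifiers (UMIs) remove copies made in amplification. A single spot can capture RNA from several neighbouring cells. The 16 *M. fascicularis* sections came from 4 title codes with 4 sections each, treated as 4 specimens: a female and a male in batch 1, and a female and a male in batch 2. The 2 sections labelled *M. mulatta* and the 2 labelled *P. anubis* had 1 title code each, all in batch 2, with sex not labelled. The ganglia were fresh frozen and cut at 10 µm, the animals are described as organ donors, and no treatment or age is named. With 1 specimen for each combination of sex and batch, sex and batch differences are also differences between single specimens. The p-values cover only these samples, and those of edgeR carry little of a gene's own spread between sections. The spots of the male batch 2 section 3 were not analysed here, which leaves 15 *M. fascicularis* sections for values per spot.

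PIEZO2 forms a large trimeric channel that opens when the membrane is stretched or indented and lets cations into the cell. In sensory neurons it carries the rapidly adapting mechanical current behind gentle touch and proprioception. Its transcript is made in the cell bodies of many low-threshold mechanoreceptors and proprioceptors, and in a part of the nociceptors, whose endings respond to painful stimuli. PIEZO1, its relative, works mainly in vessels and other non-neuronal tissue; no feature with the symbol PIEZO1 was found in the *M. fascicularis* table.

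PIEZO2 was a sparse transcript. Over the 16 *M. fascicularis* sections it gave 2642 UMIs of 63255489 under tissue, and its level per section ran from 25.6 to 53.0 CPM (UMIs scaled to a total of 1000000) with a median of 41.0. Totals under tissue lay between 1136433 and 7073134 UMIs per section. Of 21897 tissue spots in the 15 sections with spots, 1914 held PIEZO2, and 1467 of these held a single UMI, 310 held 2 and 137 held 3 or more. The richest spot held 9 UMIs.

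In the female of batch 1, the 4 sections gave 33.5, 40.7, 36.0 and 25.6 CPM of PIEZO2, from 54, 174, 243 and 100 UMIs. In the male of batch 1 they gave 53.0, 32.4, 43.3 and 51.7, from 192, 157, 161 and 366 UMIs. Sections of a single specimen thus differed by up to 20.6 CPM. In the female of batch 2 the levels were 52.8, 41.3, 43.0 and 49.8 CPM, from 227, 232, 178 and 255 UMIs. In the male of batch 2 they were 44.1, 37.8, 29.1 and 26.4, from 142, 72, 59 and 30 UMIs. Neighbours in the order of the 16 levels all had overlapping 95% Poisson intervals, such as 20.8 to 31.1 for the lowest section and 17.8 to 37.7 for the next. The lowest and the highest section, at 20.8 to 31.1 and 45.8 to 61.1, did not overlap. These intervals cover counting error only.

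**Figure D1:**
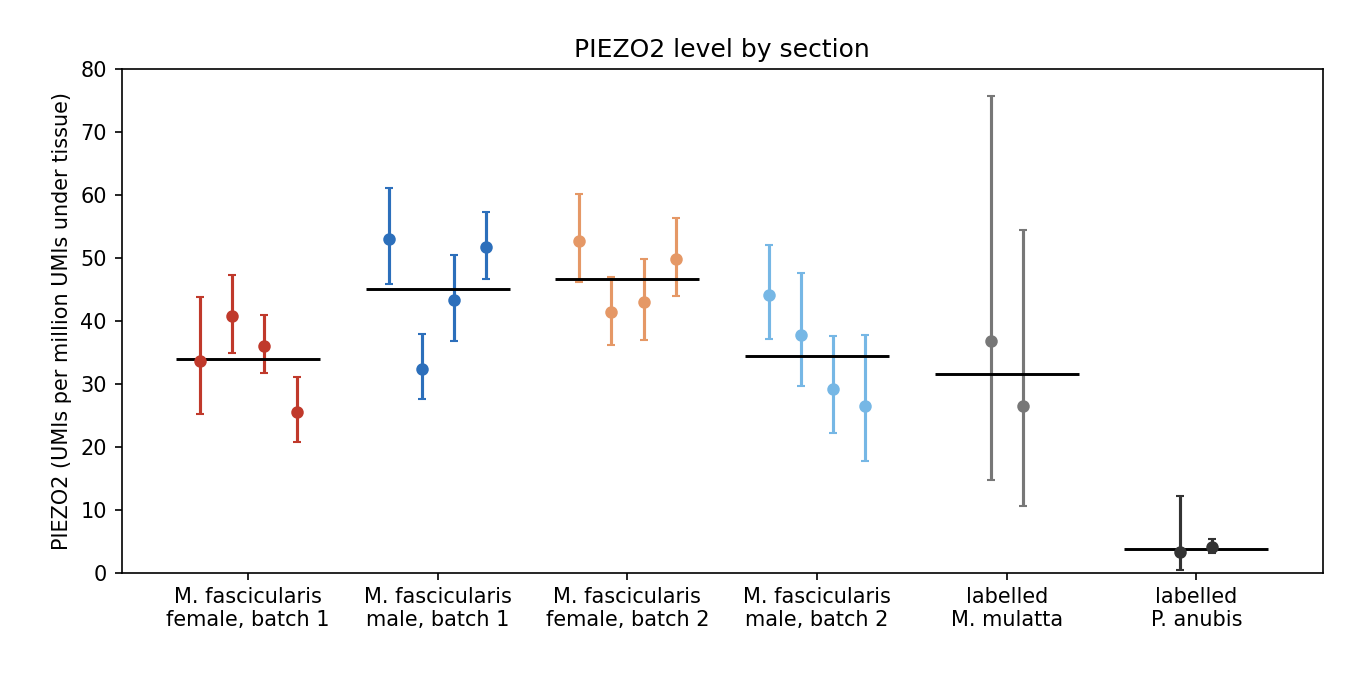
PIEZO2 in CPM under tissue (vertical axis) for each section (points) of the 6 groups, with 95% Poisson intervals (bars) and the mean of each group (line). The 4 *M. fascicularis* groups overlap between 25.6 and 53.0, and both sections labelled *P. anubis* lie below 5.

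Group means were 34.0 ± 6.35 CPM in the female and 45.1 ± 9.50 in the male of batch 1 (SD, n = 4 sections each). They were 46.7 ± 5.44 in the female and 34.4 ± 8.12 in the male of batch 2 (SD, n = 4 sections each). The male section mean was thus 11.2 CPM above the female one in batch 1 and lower by 12.4 in batch 2, and with 1 specimen in each cell this turn was not tested. Over both batches the 8 female sections ranged from 25.6 to 52.8 and the 8 male sections from 26.4 to 53.0, so the sexes overlapped almost fully.

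On counts summed by specimen, PIEZO2 did not differ by sex beyond the spread between specimens (male minus female log2 fold change -0.05, SE 0.27, quasi-likelihood test of edgeR, Benjamini-Hochberg adjusted p = 0.998). An interval of 2 SE runs from -0.58 to 0.49. No gene was called for sex (0 of 12650, 0%; 169 had an unadjusted p under 0.05, and DESeq2 also called 0). Between batches PIEZO2 gave a log2 fold change of 0.18 (batch 2 minus batch 1, SE 0.27, edgeR adjusted p = 0.777), with 2 SE from -0.36 to 0.71. In that comparison 364 of 12650 genes were called (2.88%) and 517 with DESeq2. Leaving out single sections moved that count to 115 without section 1 and 120 without section 2 of the male of batch 2. It moved to 942 without section 4 and 674 without section 1 of the female of batch 1, and to 564 without section 1 of the female of batch 2.

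The sections labelled *M. mulatta* gave 7 PIEZO2 UMIs each, or 36.8 and 26.4 CPM, with Poisson intervals of 14.8 to 75.8 and 10.6 to 54.5. Their median spot held 62 and 61 UMIs, and PIEZO2 was present in 0.310% and 0.224% of spots. These levels lay within the *M. fascicularis* range, and their intervals were too wide to separate them from any *M. fascicularis* section. Outside the tissue of both sections PIEZO2 stood at 54.1 CPM, from 6 UMIs, against 30.8 under tissue, so the tissue level was not above this background. All 6 UMIs came from section 1. Spots with at least 200 UMIs held 0 PIEZO2 UMIs in both sections.

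The sections labelled *P. anubis* gave 2 and 52 PIEZO2 UMIs, or 3.36 and 4.13 CPM, with intervals of 0.407 to 12.1 and 3.08 to 5.41. Both intervals lay below those of all 16 *M. fascicularis* sections. Over the UMIs of the 13102 genes whose symbols the 3 feature tables share, the mean was 6.87 CPM of PIEZO2 in the sections labelled *P. anubis* and 62.7 ± 15.2 in *M. fascicularis* (SD, n = 16 sections). The ratio of these means was 9.13. The pan-neuronal genes made up 1.19% and 1.90% of UMIs in the sections labelled *P. anubis*, against 1.12% to 1.76% in *M. fascicularis*. Per 1000 pan-neuronal UMIs, PIEZO2 gave 0.283 and 0.217 UMIs in the former and 1.72 to 3.87 in the latter. The pan-neuronal list had 17 measured genes in the sections labelled *P. anubis* and 15 in *M. fascicularis*. These shares and values per 1000 UMIs are thus not over the same genes.

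Each of these species labels has 1 specimen and its own gene models, and gene model, specimen and species cannot be told apart, so no test was made. In the sections labelled *P. anubis* PIEZO2 was also not concentrated in neuron-rich spots: over rising quartiles of pan-neuronal share it gave 8.94, 12.3, 4.04 and 2.33 CPM, from 5, 14, 16 and 17 UMIs. All of these UMIs came from section 2, and section 1 held 0 in each quartile, so this rests on 1 section. Outside the tissue of both sections PIEZO2 stood at 14.6 CPM, from 5 UMIs.

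Within *M. fascicularis* sections PIEZO2 rose with the neuronal content of spots. Spots with at least 200 UMIs were ranked in each section by the share of their UMIs from 15 measured pan-neuronal genes, such as STMN2, TUBB3 and SNAP25, which serve the axon cytoskeleton and synaptic vesicle release. From the lowest to the highest quartile, PIEZO2 gave 25.8, 27.5, 34.8 and 37.4 CPM in the female of batch 1. It gave 15.03, 23.0, 46.4 and 54.7 in the male of batch 1. In both specimens of batch 1 each step was upward.

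In batch 2 the highest quartile was not the highest PIEZO2 level. The female gave 9.03, 30.7, 52.8 and 48.8 CPM, and the male 19.6, 35.3, 47.8 and 40.3. Over the 4 specimens the mean went from 17.4 ± 7.12 to 29.1 ± 5.21, 45.4 ± 7.63 and 45.3 ± 7.90 (SD, n = 4), so the level rose up to the next-to-highest quartile and was flat after it. Depth rose in the same order: the median spot held 696, 1223, 3134.5 and 5558.5 UMIs in the median section, and the share of spots with PIEZO2 was 1.12%, 3.95%, 12.9% and 21.3%. The part of depth in the share of spots was not tested, and the CPM level is scaled to depth.

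**Figure D2:**
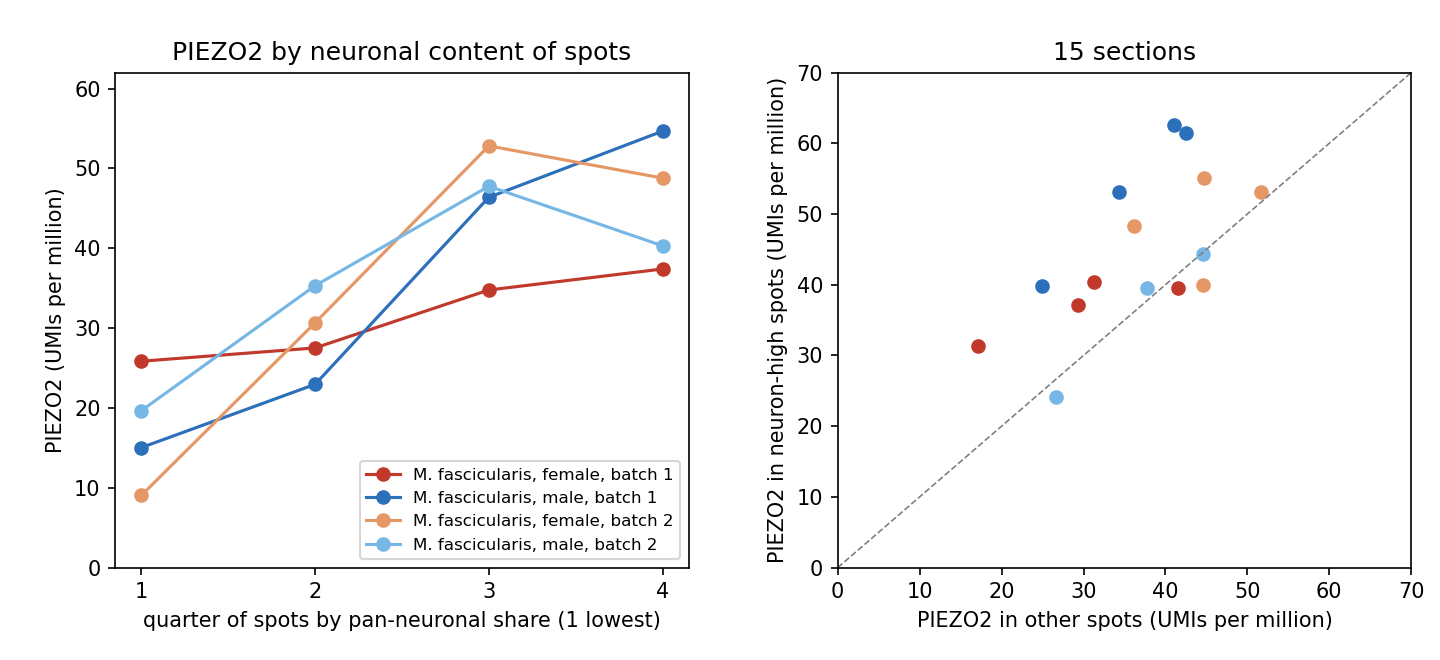
Left, PIEZO2 in CPM against the quartile of spots by pan-neuronal share, for 4 *M. fascicularis* specimens (lines). Right, PIEZO2 in neuron-high spots against other spots of the same section, in CPM, with equality dashed; 11 of 15 sections lie above it.

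Against all other spots, the 25% of spots with the highest pan-neuronal share had more PIEZO2 in 4 of 4 specimens and 11 of 15 sections. The female of batch 1 gave 37.4 CPM in neuron-high and 31.6 in other spots. The male of batch 1 gave 54.7 and 36.2, and the female of batch 2 gave 48.7 and 44.6. The male of batch 2 gave 40.3 and 38.8. The gap was widest in the male of batch 1, where all 4 sections were higher by 14.9 to 21.4 CPM, and smallest in the male of batch 2.

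The log2 fold change was 0.33 (SE 0.10, edgeR adjusted p = 0.0108; mean 45.3 ± 7.92 against 37.8 ± 5.43 CPM, SD, n = 4). Of 12083 genes 4620 were called in either direction (38.2%) and 2041 higher (16.9%), so a call is common here. The call was lost without the male of batch 1 (0.19, edgeR adjusted p = 0.196), with DESeq2 (0.33, adjusted p = 0.0595) and with at least 1000 UMIs per spot (0.25, edgeR adjusted p = 0.0823). In bulk or summed spots, fewer cells that carry PIEZO2 and less PIEZO2 per cell cannot be told apart.

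Spots outside the tissue gave a background for these values. In the 15 *M. fascicularis* sections they held 162 PIEZO2 UMIs, or 32.4 CPM, and were below the tissue level in 12 of 15 sections. The level under tissue was 41.8 CPM over all 16 sections. Spots outside the tissue held 7.54% of all UMIs of the 15 sections. Spots outside tissue thus carried PIEZO2 at a level between those of the middle quartiles, 29.1 and 45.4 CPM, and the lowest quartile, at 17.4, lay below it.

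The share of spots with PIEZO2 ran from 2.91% to 18.8% per section with a median of 9.06%. It was highest in section 2 of the female of batch 1 (18.8%, exact Clopper-Pearson interval 15.7% to 22.2%), whose median spot held 5145 UMIs, and lowest in section 4 of the male of batch 2 (2.91%, 1.91% to 4.23%), whose median spot held 446. When each spot was thinned to 500 UMIs, leaving out 7173 shallower spots, the share ran from 0.717% to 2.07% with a median of 1.56%. The spread between sections at equal depth was thus smaller than the raw shares show.

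Spatial clustering of PIEZO2 was weak in the authors' deposited table. Moran's I, which is near 0 for a random layout and rises as neighbouring spots become alike, had a median of 0.0172 over the 16 *M. fascicularis* sections and ranged from -0.00485 to 0.1002 in the authors' deposited table. The adjusted p in the authors' deposited table was under 0.05 in 6 of 16 sections, of which 5 were in batch 1 and 1 in batch 2; over all genes and these sections 16.2% of values passed. The 6 sections held 157 to 366 PIEZO2 UMIs and the other 10 held 30 to 255, and the part of UMI number in passing was not tested.

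The highest score in the authors' deposited table, 0.1002 in section 2 of the female of batch 1 (adjusted p = 6.35e-12), came with 5650 of 13909 genes passing there (40.6%). The other 5 sections that passed were sections 4, 1 and 2 of the male of batch 1 (0.0524, 0.0497 and 0.0267), section 1 of the female of batch 2 (0.0302) and section 3 of the female of batch 1 (0.0282) in the authors' deposited table. Recomputed on log-normalised values of 15 sections, over spots with at least 200 UMIs only, the median I was 0.0354 (0.00325 to 0.0983). There section 1 of the female of batch 2 gave 0.00566. These values are thus not over the same spots and sections as the deposited ones. By rank of I within a section, PIEZO2 stood at a median percentile of 85.01, from 12.0 to 92.02, in the authors' deposited table. PIEZO2 was thus above most genes in most sections, while its scores remained small.

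Abundant neuronal genes scored higher than PIEZO2 in the authors' deposited table. NEFH, the heavy neurofilament of large myelinated neurons, had a median I of 0.283 and passed in 16 of 16 sections in the authors' deposited table. PVALB, a calcium buffer of proprioceptors, had 0.0897 and passed in 14, and TAC1, the substance P precursor, had 0.214 and passed in 16 in the authors' deposited table. In the 4 sections labelled *M. mulatta* and *P. anubis*, PIEZO2 scored between -0.00269 and -0.000442 in the authors' deposited table, and none passed.

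**Figure D3:**
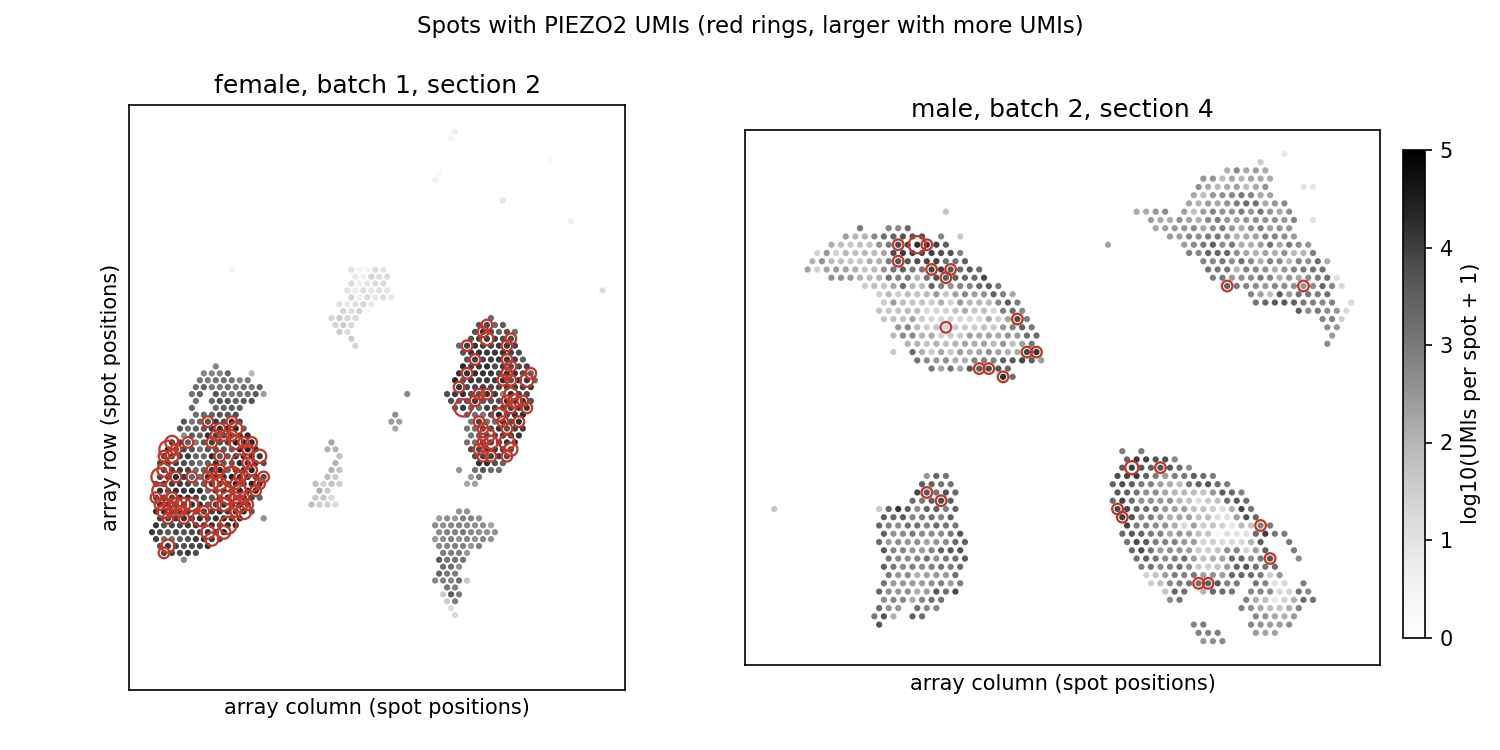
Tissue spots at their array positions (row and column) in 2 *M. fascicularis* sections, shaded by log10 UMIs per spot, with red rings at spots that hold PIEZO2 (larger rings hold more UMIs). Left, the section with the highest Moran's I (0.1002 in the authors' deposited table) has rings in dense groups inside 2 tissue pieces; right, a section with few UMIs (30 PIEZO2 UMIs) has scattered rings.

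Spots next to a PIEZO2-positive spot were compared with those next to a PIEZO2-free spot of the same section, matched on total UMIs and pan-neuronal share. The array gives each spot up to 6 neighbours. PIEZO2 was found in 22.0% of neighbours of positive spots and 20.4% of neighbours of matched free spots in the female of batch 1, and in 24.4% and 23.9% in the male of batch 1. In batch 2 it was found in 17.9% and 20.1% in the female and in 12.0% and 10.4% in the male.

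The difference was positive in 3 of 4 specimens, with a mean of 0.377 ± 1.81 percentage points (SD, n = 4), and did not exceed the spread between specimens (exact two-sided sign-flip permutation test, p = 0.875; 4 specimens cannot give a p under 2 in 16). Against unmatched free spots the difference was 10.1 ± 3.21 points in 4 of 4 specimens, which gives the smallest p the exact permutation test allows. On average PIEZO2 was found in 19.1% of neighbours of positive spots, 18.7% of neighbours of matched free spots and 8.99% of neighbours of unmatched free spots.

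PIEZO2-positive spots were deep and neuron-rich, which any list of co-detected genes inherits. Their median total was 7618 UMIs in the median section, against 1261 in all PIEZO2-free spots with at least 200 UMIs. Their pan-neuronal share, taken over the summed UMIs of the spots, was above that of free spots in 15 of 15 sections. Correlations with PIEZO2 were taken over spots with at least 200 UMIs, without matching. By median Pearson correlation over 15 sections, the closest genes were EPB41L3 (0.18), OLFM1 (0.18), ATP1B1 (0.18) and TSPAN7 (0.18). KLC1, SNAP25, RTN3, ATP5IF1 and 2 features without a symbol completed the first 10 of 6617 genes. These weak correlations are across spots that share depth and library, and are a description. To set depth aside, 1908 PIEZO2-positive spots were each matched with a PIEZO2-free spot of the same section, with median totals of 7618 and 7485 UMIs and pan-neuronal shares of 1.59% and 1.59% in the median section.

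At matched depth, PCP4 and GFRA2 were the 2 called genes that were higher in PIEZO2-positive spots in all 15 sections. PCP4 encodes a small calmodulin-binding protein of neurons. GFRA2 is the neurturin receptor, a marker of C-fibre low-threshold mechanoreceptors and some other sensory neurons. Of the 11269 genes tested, edgeR called 111 (0.985%), with 43 higher (0.382%) and 68 lower (0.603%) in positive spots.

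The number of calls depended on the method. The methods differed in the estimate of spread, in the samples and in the genes covered, and these parts were not told apart. Of the 111 genes, 29 had no adjusted p in DESeq2, so their lack of a call there is not a test result. DESeq2 on the same sums called 11 genes, all among the 111: 4 were higher, with PCP4 and GFRA2 among them, and 7 were lower, with APOD, CD74, LPL and LITAF among them. A fit by limma with sections as samples and their own spread per gene tested 9519 genes and called 1, PCP4. Calls of other genes given here rest on edgeR alone.

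PCP4 gave 541, 655, 1293 and 988 CPM in positive spots of the female and male of batch 1 and the female and male of batch 2. In matched free spots of the same specimens it gave 375, 447, 990.2 and 511. All 4 specimens were higher in positive spots; the log2 fold change was 0.52 (SE 0.03, adjusted p = 8.77e-40 by edgeR, 0.000876 by DESeq2 and 0.00561 by limma). In spots with at least 2 PIEZO2 UMIs the log2 fold change was 0.74.

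GFRA2 gave 157, 137, 122 and 90.7 CPM in positive spots of the specimens in the same order, and 116, 117, 86.9 and 41.3 in matched free spots. The log2 fold change was 0.40 (SE 0.05, adjusted p = 9.43e-10 by edgeR, 0.00131 by DESeq2 and 0.138 by limma). GFRA2 was detected in 48.7% of positive and 39.3% of matched free spots, a difference of 9.14 ± 3.46 percentage points (SD, n = 4 specimens) that was positive in 14 of 15 sections. In spots with at least 2 PIEZO2 UMIs the log2 fold change of GFRA2 was 0.65.

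**Figure D4:**
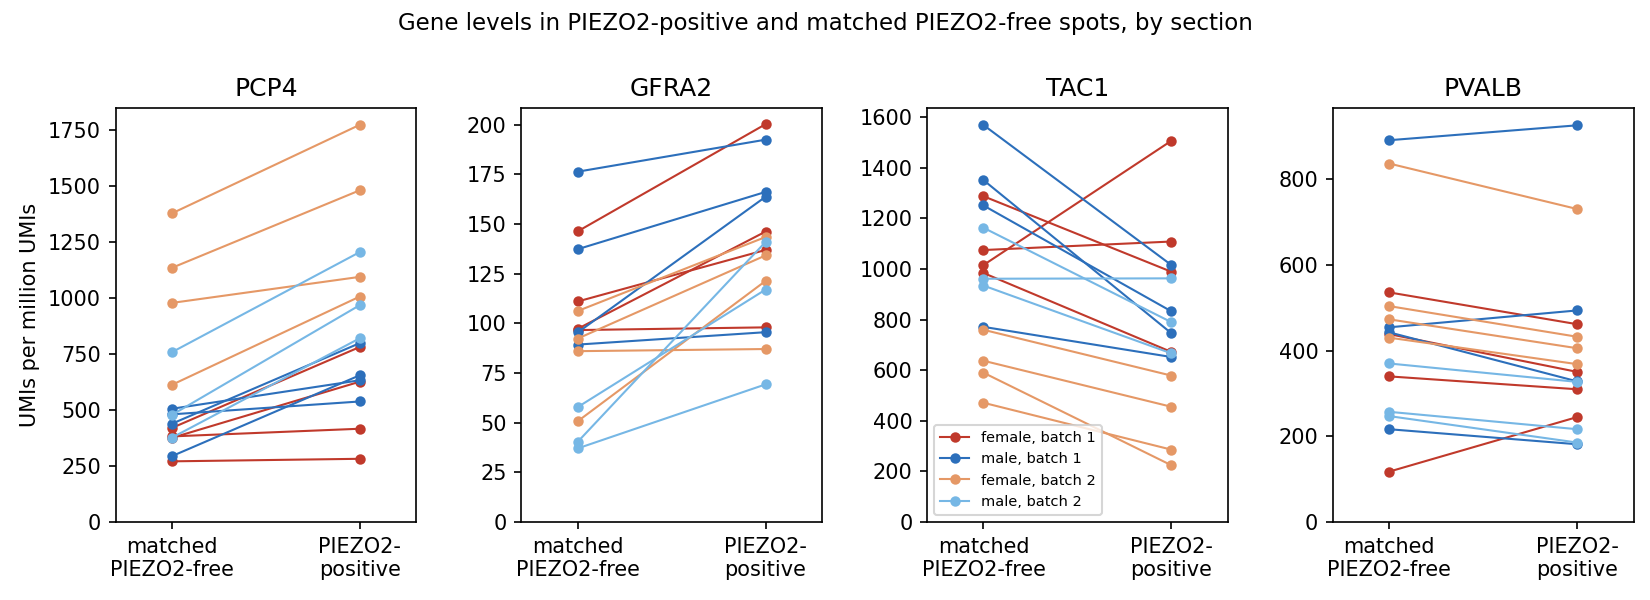
PCP4, GFRA2, TAC1 and PVALB in CPM (vertical axes) in PIEZO2-positive spots and their matched PIEZO2-free spots, with 1 line per section (15) coloured by specimen. PCP4 and GFRA2 are higher in positive spots in all 15 sections; TAC1 and PVALB are lower in 12 of 15.

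Other genes whose level went with PIEZO2 were fewer in UMIs. NTNG1, a netrin-related axon guidance protein, rose by edgeR (log2 fold change 0.56, SE 0.10, adjusted p = 4.75e-05; higher in 14 of 15 sections). KIRREL3, a synaptic adhesion protein, rose likewise (0.52, SE 0.09, edgeR adjusted p = 1.08e-05; higher in 14 of 15 sections). KIT, a receptor tyrosine kinase found on part of the peptidergic nociceptors, rose by 0.52 (SE 0.10, edgeR adjusted p = 0.000301) and was higher in 11 of 15 sections. None of these 3 passed in limma (adjusted p = 0.255, 0.138 and 0.760 in that order). The edgeR call of NTNG1 was lost without the female of batch 2 (adjusted p = 0.0616), and that of KIT without the female (0.0716) or the male (0.124) of batch 1.

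The remaining genes most like PIEZO2 by the same ranking were CEP76 (log2 fold change 0.97), TMEM108 (0.70), PPP1R14B (0.42), UBR7 (0.37) and POPDC3 (0.34). CEP76 is a centriolar protein and TMEM108 a transmembrane protein of neurons. Their edgeR adjusted p-values ran from 0.00674 to 0.0324, and CEP76 rested on 129 and 60 UMIs in positive and free spots. Each of these 5 calls was lost when some single specimens were left out, as CEP76 was without the male of batch 1 (edgeR adjusted p = 0.475) and TMEM108 without the female of batch 2 (0.377).

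The listed markers of touch and proprioception neurons, which leave out GFRA2, did not go up as a list with PIEZO2 at matched depth. Of 20 listed genes, 16 were tested, and 0 were called higher and 1 lower, against 0.382% and 0.603% over all genes tested. The median log2 fold change of the 16 was -0.07 against 0.00 over all 11269 genes. NEFH was level, at 0.01 (SE 0.02, edgeR adjusted p = 0.95), and was detected in 97.96% of both kinds of spot. PVALB was the gene called lower (-0.12, SE 0.03, edgeR adjusted p = 0.0176, DESeq2 adjusted p = 0.540), in 3 of 4 specimens and 12 of 15 sections.

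PVALB gave 370, 611, 462 and 216 CPM in positive spots of the female and male of batch 1 and the female and male of batch 2, and 417, 599, 538 and 270 in matched free spots. The call was lost without the female of batch 1, the female of batch 2 or the male of batch 2 (edgeR adjusted p = 0.211, 0.699 and 0.167), and without 5 of the 15 sections singly. In spots with at least 2 PIEZO2 UMIs its log2 fold change was -0.57 (edgeR adjusted p = 1.97e-06). NTRK2, the BDNF receptor of some touch neurons, gave -0.47 (SE 0.26, edgeR adjusted p = 0.583) on 62 and 79 UMIs. NTRK3, the receptor of proprioceptors, held 132 UMIs in all and was too sparse to test.

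The C-fibre touch list had 6 genes, of which 2 were tested: GFRA2, called higher, and ZNF521. The vesicular glutamate transporter SLC17A8 of this list held 0 UMIs in the matched spots, and TH, the enzyme for catecholamine synthesis, was found in 0.367% of positive and 0.629% of matched free spots. The summed level of this list, most of it GFRA2, was higher in 4 of 4 specimens.

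Of 23 nociception genes, 18 were tested, 1 was called higher (KIT) and 5 lower (TAC1, GFRA3, SST, TRPV1 and CALCA), and 12 were not called. Over all 11269 genes tested, edgeR called 0.382% higher and 0.603% lower. The median log2 fold change of the 18 nociception genes was -0.07. The summed level of the list was lower in positive spots in 4 of 4 specimens, with a range of 2486 to 3652 CPM against 2901 to 4339. Abundant genes such as TAC1 weigh most in this sum, and SCN11A of the same list went the other way without a call.

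TAC1, which encodes substance P of peptidergic nociceptors, gave 961, 787, 394 and 879 CPM in positive spots of the specimens in the order above. In matched free spots it gave 1076, 1253, 624.8 and 993. It was lower in 4 of 4 specimens and 12 of 15 sections, at -0.46 (SE 0.03, adjusted p = 8.49e-32 by edgeR, 0.319 by DESeq2 and 0.138 by limma). Its fall was large in the male of batch 1 and the female of batch 2 and small in the others. GFRA3, the artemin receptor, gave -0.40 (SE 0.07, edgeR adjusted p = 3.88e-05, DESeq2 adjusted p = 0.196), and -0.28 without the female of batch 2 (edgeR adjusted p = 0.233).

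SST, the somatostatin precursor of itch-related neurons, gave -0.29 (edgeR adjusted p = 2.02e-05) and -1.25 in spots with at least 2 PIEZO2 UMIs (edgeR adjusted p = 1.82e-11). TRPV1, the heat and capsaicin channel, gave -0.29 (SE 0.06, edgeR adjusted p = 0.000795), and CALCA, the CGRP precursor, gave -0.14 (SE 0.03, edgeR adjusted p = 0.00117). Without section 2 of the female of batch 1, SST gave -0.13 (edgeR adjusted p = 0.517); without the male of batch 1, TRPV1 gave -0.17 (0.517) and CALCA -0.10 (0.334). TRPV1 also lost its edgeR call without section 2 of the female of batch 2 (adjusted p = 0.0853). CALCA also lost it without the female of batch 2 (0.0777), section 2 of the female of batch 1 (0.0804) or section 4 of the male of batch 1 (0.141). Without matching, the log2 fold change of CALCA was 0.02 and that of PVALB 0.12, so the sign of both turned when spots were not matched on total UMIs and pan-neuronal share.

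The other nociceptor genes were not called. The voltage-gated sodium channels SCN11A, SCN9A and SCN10A gave 0.10 (SE 0.03), 0.15 (SE 0.09) and -0.12 (SE 0.26), with edgeR adjusted p of 0.122, 0.667 and 0.951. The cold channel TRPM8 and the irritant channel TRPA1 gave -0.07 (SE 0.20) and -0.01 (SE 0.22). SCN11A was detected in 67.0% of positive and 63.8% of matched free spots.

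Of 30 other mechanosensation genes, which include channels of the TMEM63, TMC, K2P, ASIC and TRP families and modulators of PIEZO2 current, 15 were tested and 0 were called by edgeR. None of the 15 was among the 11 genes called by DESeq2 or was the gene called by limma. Over all 11269 genes tested, edgeR called 0.985%. The median log2 fold change of the 15 was 0.00, as over all genes. ASIC2, an acid-sensing channel, gave 0.11 (SE 0.23, edgeR adjusted p = 0.945) on 96 and 81 UMIs. STOML3, which tunes the sensitivity of PIEZO channels, held 6 UMIs under tissue in all *M. fascicularis* sections together, and KCNK2, a stretch-gated potassium channel, held 0. No feature carried the symbol TMEM120A.

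Lists of non-neuronal cells held only genes called lower or not called in PIEZO2-positive spots. GAP43 was the 1 pan-neuronal gene called, also lower. The pan-neuronal genes were used to match the spots, so this call is not a result about GAP43. Among satellite glia APOE was called lower (1 of 7 tested), among myelinating Schwann cells 2 of 6, with PRX among them, and among fibroblasts APOD and DCN (2 of 7). VWF of endothelium (1 of 5), ACTA2 of smooth muscle (1 of 5), CD74 of immune cells (1 of 7) and LPL of the adipocyte list (1 of 4) were also called lower. Over all 11269 genes tested, edgeR called 0.603% lower. ACTA2 gave -0.82 (SE 0.13, edgeR adjusted p = 1.64e-06), which rested on the female of batch 1, with 85 UMIs in positive and 228 in matched free spots; without that specimen it was -0.22 (edgeR adjusted p = 0.852), and without its section 1 it was -0.37 (edgeR adjusted p = 0.277). By limma it was -0.36 (adjusted p = 0.831). PRX, a protein of the myelin sheath, gave -0.23 (edgeR adjusted p = 0.00866).

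The summed levels of the satellite glia, myelinating Schwann, fibroblast, endothelium, smooth muscle and adipocyte lists were lower in positive than in matched free spots in 4 of 4 specimens. The immune list was lower in 3 of 4, and the non-myelinating Schwann and skeletal muscle lists in 2 of 4. The pan-neuronal sum was higher in positive spots in 4 of 4 specimens (mean 16388 against 16256 CPM), so the match on neuronal share was not exact. Satellite glia genes summed to 3824 to 4825 CPM in positive and 3903 to 5312 in matched free spots, and myelinating Schwann genes to 1046 to 2448 and 1070.0 to 2711. Of the genes called in these lists, APOE lost its edgeR call without the female of batch 1 (adjusted p = 0.362), DCN and PRX without the male of batch 1 (0.647 and 0.284), and VWF whichever of the 4 specimens was left out. PRX also lost it without either female (0.0919 in batch 1 and 0.0735 in batch 2). PDGFRA of fibroblasts and PLIN4 of adipocytes held 0 UMIs in both. The part of these cells in the genes called around PIEZO2 was not tested. The other genes with the largest falls were SCRG1 (-0.75, edgeR adjusted p = 3.34e-07), PAQR7 (-0.55, edgeR adjusted p = 0.0324) and MGP, the matrix Gla protein (-0.49, edgeR adjusted p = 0.00497). PAQR7 lost its edgeR call whichever specimen was left out (adjusted p = 0.0645 to 0.310), and MGP without the female of batch 1 (0.113) or of batch 2 (0.375).

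**Figure D5:**
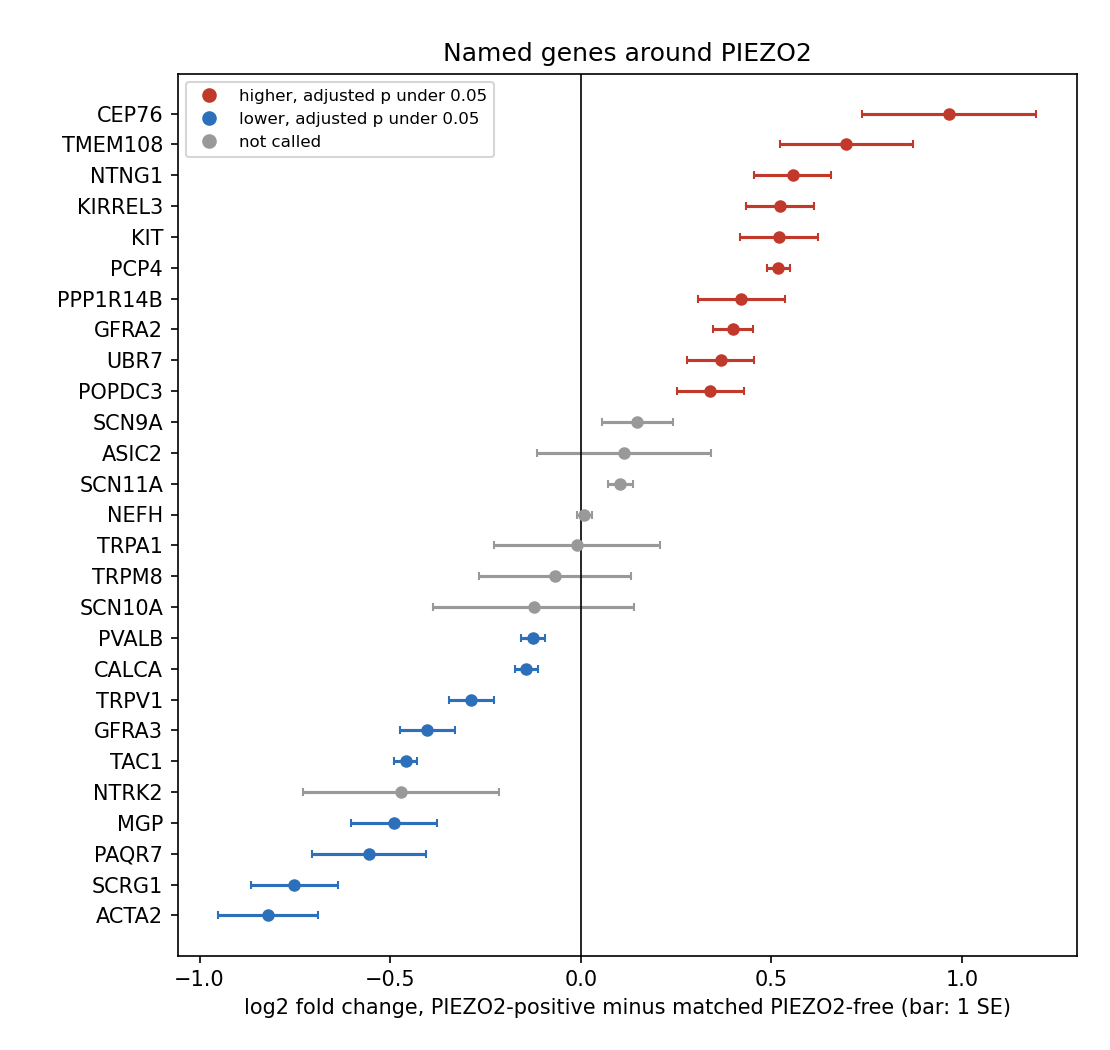
Log2 fold change (horizontal axis, with bars of 1 SE from edgeR) between PIEZO2-positive and matched PIEZO2-free spots for the genes named in the text by rule and tested. PCP4 (0.52) and GFRA2 (0.40) stand among the higher genes, and TAC1 (-0.46) and SCRG1 (-0.75) among the lower ones; ACTA2 (-0.82) rests on the female of batch 1, and NEFH lies at 0.01.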

How the data were processed

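UMI counts per feature and spot, and per section table under tissue, were deposited by the authors; per the file headers, Space Ranger 2.0.0 made 12 matrices and 2.1.0 made 7. The build is named Mmul_10 in the submitters' processing notes, while the *M. fascicularis* features carry ENSMFAG identifiers; the annotation version is not given in the sources used here. The Moran's I scores and their p-values are the authors' deposited values and were only described.

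The gene, its comparisons and all lists were chosen with earlier results of these data known. Sections of one title code were summed as 1 specimen and tested with edgeR 4.0.16 (quasi-likelihood, TMM, Benjamini-Hochberg at 0.05, low counts filtered); DESeq2 1.42.0 and limma 3.58.1 were alternatives. Sex and batch entered one model; contrasts of spots (under tissue, at least 200 UMIs) had the specimen as a block. Each PIEZO2-positive spot was matched with the nearest free spot of its section in log total UMIs and pan-neuronal share. In 2 sections (the male of batch 1, section 4, and the female of batch 2, section 1) the match was less close, with median totals of 11047 against 8550 and 12654 against 10346 UMIs. The edgeR dispersion was close to counting error, so its p-values carry little of a gene's own spread between sections. The edgeR fits were also run on simulated counts. For sex they recovered 21% of 2-fold and 87% of 4-fold changes, and for batch 9% and 94%. For the neuron-high contrast 91% of 2-fold changes were recovered, and for the matched contrast 86%. Genes not called for sex or batch may thus still differ by 2-fold.

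The genes named are a set of channels and sensory markers. From 3 lists, the 2 called genes with the largest fold change each way were added. Among called genes with a symbol, at least 50 UMIs and the same direction in 4 of 4 specimens, the 10 that rose most and the 5 that fell most were added. Other genes named, such as SST, APOE, PRX, APOD, DCN, VWF, CD74, LPL, LITAF and GAP43, are outside this rule. They were chosen after their values were seen. Section numbers of the titles went together in batch 1 (deviations of the 4 same-numbered pairs of female and male correlated at 0.229 to 0.456); of the 20 other pairs, 5 were above 0.1. No 2 sections of a group agreed within sampling noise (26 pairs, lowest chi-square per degree of freedom 3.93). Sequences were not used here, and some results are not reported here.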

Additional observations from a re-analysis of the deposited data

How the results depend on the processing

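The sex difference of PIEZO2 turned its sign in neuron-high spots alone (0.0947) and when single sections were left out (-0.127 to 0.0239 over 16 sections); the lowest adjusted p over its 22 model fits was 0.826. The batch difference (0.09 to 0.25 over the sections left out) kept its direction and stayed uncalled. Same-numbered sections deviated together within batch 1, and pairing them there gave a male minus female log2 difference of 0.404 ± 0.577 (SD, n = 4 pairs, 3 higher in the male, exact sign-flip permutation p = 0.375), chosen after seeing the data; the block changed no call of PIEZO2. Sections as samples with a replicate block called 4448 genes for batch, and 4345 without it, against 364; no filter on low counts gave 1279 and neuron-high spots alone 220; for sex, 67 genes were called with no filter on low counts and 5 with the block, against 0. Neuron-high calls of PIEZO2 were lost with DESeq2 (0.33), with at least 1000 UMIs (0.25) and without 1 specimen (0.19 to 0.42 over specimens and sections left out); there DESeq2 called 2878 genes against 4620.

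The 111 genes called around PIEZO2 became 11 with DESeq2, 1 with limma over sections with a replicate block, 42 with at least 2 PIEZO2 UMIs, 2498 with no matching, and 67 without the 2 less closely matched sections; limma and the last were chosen after seeing the data. With an edgeR replicate block by section, 106 were called, 99 of them shared with the 111. Leaving out specimens or sections gave 48 to 122 calls: 57, 51 and 48 without the female of batch 1, the male of batch 1 and the female of batch 2, and 73 with section 3 of the batch 1 female left out. PCP4 stayed called in all 30 alternatives, while CALCA (0.0157) and PVALB (0.12) turned with no matching. The neighbour difference was 0.377 points, and 0.114 to 0.624 with a section left out, 0.0126 with matching on total UMIs only, 2.14 (4 of 4 specimens) with at least 2 PIEZO2 UMIs and 10.1 with no matching.

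The log2 ratio of the sections labelled *M. mulatta* to *M. fascicularis* was -0.02 and turned to 0.83 per 1000 pan-neuronal UMIs and to values from -0.28 to 0.20 when a section was left out; that of the sections labelled *P. anubis* stayed between -3.36 and -3.04. The pan-neuronal list had 14 measured genes in the sections labelled *M. mulatta* and 15 in *M. fascicularis*. The ratio per 1000 pan-neuronal UMIs is thus not over the same genes. Causes were not tested. Depth limits what can be seen of PIEZO2: 14 UMIs in the sections labelled *M. mulatta*, and mostly 1 UMI in a positive spot.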
